A study of Homo sapiens with 15 samples.

Results

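MRC-5 fibroblasts that shared a culture with H196 cells were compared with MRC-5 fibroblasts grown alone, across all genes and in both directions. MRC-5 is a human lung fibroblast line, and H196 is a small cell lung cancer (SCLC) line of the non-neuroendocrine kind. The comparison takes 3 libraries of fibroblasts from co-culture with H196 (MRC5_CoH196) and 3 of fibroblasts in monoculture (MRC5_Mo), which are 6 of the 15 samples of the series. A further 3 libraries of fibroblasts co-cultured with H69 (MRC5_CoH69), a neuroendocrine SCLC line, share in the fit and are used only for comparison. All cells were kept for a week, with the tumor cells on the membrane of a transwell insert and the fibroblasts on the floor of the well, so that the cells shared medium. No group carried a genetic change or a drug, each line stands for 1 source of cells, and monoculture had no tumor cells in the insert. The labels do not say whether the replicates came from separate cultures, so the p-values measure the spread between these libraries, which may be technical.

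Fibroblasts are the cells that build connective tissue. They lay down fibrillar collagens, which enzymes of the endoplasmic reticulum hydroxylate and which lysyl oxidases cross-link outside the cell, and they secrete growth factors and proteases that act on their neighbours. In tumors such cells are called cancer-associated fibroblasts, and their growth, biosynthesis and secretions are known to depend on the supply of oxygen and nutrients as well as on signals from tumor cells.

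Counts per library summed to between 18476890 and 19170560, and Pearson's correlation between libraries of a group was at least 0.9939 across genes. Of 16382 genes in the table, 12819 passed the filter on low counts and were tested. All fibroblast markers on a list of 12 were present. Their summed level was 8950 to 9350 FPKM in MRC5_CoH196 and 10100 to 10500 FPKM in MRC5_Mo, with VIM and PDGFRB called higher and the collagen genes COL1A1 and COL3A1 called lower. The defining epithelial genes EPCAM, CDH1 and ESRP1, the leukocyte gene PTPRC, the endothelial genes PECAM1, CDH5 and ERG and the neuroendocrine genes SYP and NCAM1 were all under 1 FPKM (fragments scaled by transcript length and library size) in all 6 libraries. Summed over each list, epithelial markers spanned 113.0 to 119.0 FPKM in MRC5_CoH196 and 108.0 to 116.0 FPKM in MRC5_Mo, with 3 of 8 called higher, and leukocyte markers spanned 75.5 to 82.4 and 52.1 to 58.5 FPKM, with 1 of 6 called higher, CD68. Endothelial markers spanned 9.85 to 10.2 FPKM in MRC5_CoH196 and 6.34 to 7.08 FPKM in MRC5_Mo, with 1 of 7 called higher. Adipocyte and muscle markers, each under 1 FPKM in all 6 libraries, spanned 1.18 to 1.44 and 0.33 to 0.73 FPKM, with 2 of 4 called higher. Neuroendocrine markers spanned 0.59 to 1.04 and 0.68 to 1.06 FPKM, with 0 of 4 called higher. In bulk RNA, fewer cells of a type and less RNA per cell cannot be told apart.

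RNA of H196 genes was found in the MRC5_CoH196 libraries. A set of 95 H196 marker genes, each at 20 CPM (counts scaled to library size) or more wherever H196 cells were sequenced and below 0.5 CPM throughout MRC5_Mo, summed to 53.5, 61.8 and 23.7 CPM in MRC5_CoH196 libraries 1, 2 and 3, against 8.97 to 9.92 CPM in MRC5_Mo and 8.36 to 10.4 CPM in MRC5_CoH69. For 33 of the 95, which had no count in any MRC5_Mo or MRC5_CoH69 library, the sums were 18.5, 23.2 and 1.72 CPM, so libraries 1 and 2 stood apart from library 3. These sums are 0.434%, 0.546% and 0.0405% of the level of the same genes in H196 cells from co-culture. MAGEA4, a cancer-testis antigen gene, was at 1.98, 2.45 and 0.15 FPKM in MRC5_CoH196 and had no count in MRC5_Mo. At the mean share of 0.34%, H196 RNA would give at most 8.33% of the MRC5_CoH196 level of any gene chosen by the naming rule, a value reached by ITGA10. Leaving out libraries 1 and 2 of MRC5_CoH196 leaves 1 library in that group, so its spread must be taken from the other groups. A count of called genes from that fit cannot show which genes depended on libraries 1 and 2.

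**Figure D1:**
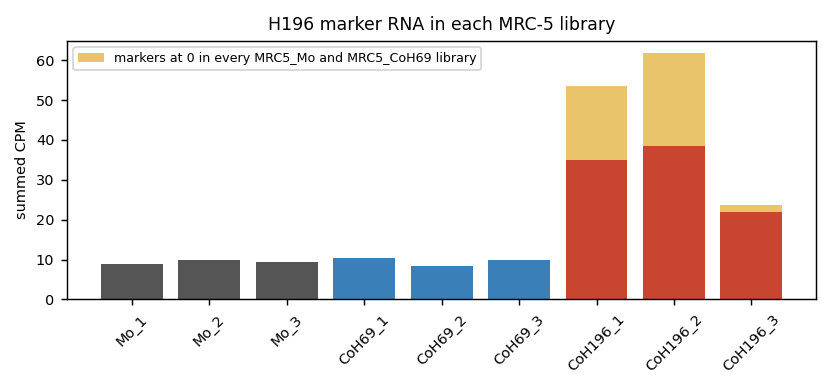
RNA of 95 H196 marker genes in each of 9 MRC-5 libraries, as summed CPM on the y axis. Yellow marks the 33 genes with no count in any MRC5_Mo or MRC5_CoH69 library. Sums were 53.5, 61.8 and 23.7 CPM in the MRC5_CoH196 libraries and 8.36 to 10.4 CPM in the other 6.

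A gene was called a differentially expressed gene (DEG) when its adjusted p was under 0.05 and its log2 fold change was beyond 0.58 on either side, by the quasi-likelihood test of edgeR. By this rule 4092 of 12819 genes (31.9%) passed, with 2207 (17.2%) higher and 1885 (14.7%) lower in MRC5_CoH196. The ranges of both groups were apart for 75.5% of genes, so lack of overlap alone says little about a single gene. On log2(FPKM + 1), a scale without the correction for RNA composition, the median of all genes was -0.13 and the split was 915 higher and 2082 lower. On log2(FPKM + 0.1) the median was -0.18 and the split 1437 higher and 2869 lower. FPKM values below are as deposited, and the fold changes carry the composition correction, so a fold change need not equal the ratio of the FPKM values. Of the higher DEGs, 142 belonged to the Hallmark hypoxia or glycolysis sets or were HLA genes, which left 2065 (93.6%) outside them. Of the lower DEGs, 1860 (98.7%) were outside. Only 284 of all 12819 tested genes were in the hypoxia or glycolysis sets, so a large share outside says little by itself. In the hypoxia set 119 were higher and 8 lower of 172, with a median log2 fold change of 1.02.

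Each gene list below is described by its counts and by the median log2 fold change of its tested members, to be read against these shares and against a median of 0.00 over all tested genes. The lists with the lowest medians were DNA replication, ribosome biogenesis, cholesterol synthesis and heat shock chaperones. The highest medians belonged to the circadian clock, immediate early factors, growth factors and the ATF4 response. Values per library are given in the order of replicates 1, 2 and 3, with MRC5_CoH196 first and MRC5_Mo second.

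**Figure D2:**
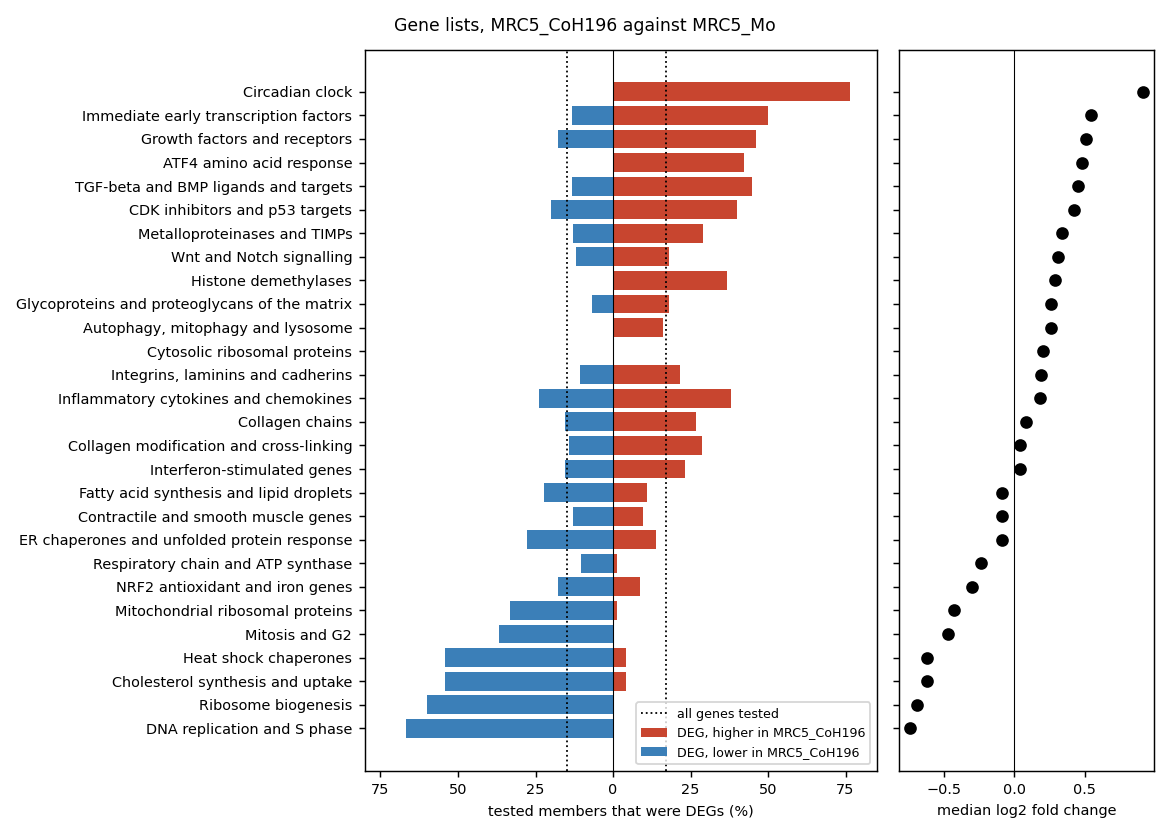
For 28 gene lists, the left panel gives the percentage of tested members that were DEGs, higher (red) or lower (blue) in MRC5_CoH196, with dotted lines at the shares over all tested genes (17.2% and 14.7%). The right panel gives the median log2 fold change of each list, from -0.74 for DNA replication to 0.91 for the circadian clock.

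Outside the hypoxia, glycolysis and HLA genes, the 15 largest rises among abundant genes mixed metabolic, clock and signalling genes. CA9, carbonic anhydrase 9, was at 33.6, 30.6 and 37.5 FPKM against 0.13, 0.46 and 0.26 FPKM (log2 fold change 7.06, SE 0.17, adjusted p = 1.8e-21). HILPDA, a lipid droplet protein, was at 147, 148 and 172 FPKM against 7.16, 7.32 and 6.62 FPKM (log2 fold change 4.65, SE 0.077, adjusted p = 6.9e-25). Both went from a low level in all 3 monoculture libraries to a high one in all 3 co-culture libraries, and CA9, HILPDA, PFKFB4 and BNIP3 are known hypoxia-responsive genes although the set annotation in the table does not list them. NOG encodes noggin, a secreted antagonist of bone morphogenetic proteins, and was at 28.3, 26.2 and 31.3 FPKM against 3.62, 4.37 and 5.48 FPKM (log2 fold change 2.84, SE 0.1, adjusted p = 2.9e-18). SERPING1, the C1 inhibitor of the complement cascade, was at 114, 102 and 119.68 FPKM against 19.3, 19.7 and 19.99 FPKM (log2 fold change 2.69, SE 0.061, adjusted p = 3.8e-22). ADARB1, an RNA-editing adenosine deaminase, was at 28.1, 27.7 and 28.9 FPKM against 5.47, 5.15 and 6.61 FPKM (log2 fold change 2.62, SE 0.056, adjusted p = 1.5e-22). For each of these genes the lowest co-culture library was more than 4 times above the highest monoculture library. EEF1A2, an isoform of translation elongation factor 1 alpha, was at 32.4, 31.3 and 35.8 FPKM against 5.35, 5.53 and 4.91 FPKM (log2 fold change 2.83, SE 0.082, adjusted p = 5.7e-20). The other rises were FAM13A (log2 fold change 2.84), FAM117B (2.82), PRSS53 (2.65), ZNF395 (3.14), PFKFB4 (2.74) and BNIP3 (2.70), besides the clock genes NR1D1 and BHLHE41 described below. SIK1B, a salt-inducible kinase gene at 3.02, has a near-identical copy, SIK1, that was listed at or near 0 in all libraries, so its reads could belong to either.

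The 15 largest falls held matrix, growth factor and uptake genes. DIO2, the deiodinase that activates thyroid hormone, was at 0.89, 0.89 and 0.9 FPKM against 8.37, 7.65 and 6.68 FPKM (log2 fold change -2.92, SE 0.091, adjusted p = 2.4e-19). PIK3R3, a regulatory subunit of phosphoinositide 3-kinase, was at 0.65, 0.8 and 0.62 FPKM against 5.01, 4.98 and 4.91 FPKM (log2 fold change -2.71, SE 0.1, adjusted p = 1.3e-17). GDF5, a ligand of the bone morphogenetic protein family, was at 2.46, 2.65 and 2.86 FPKM against 20.7, 18.5 and 18.9 FPKM (log2 fold change -2.69, SE 0.087, adjusted p = 4.8e-19). None of these showed any overlap, which the naming rule required, and DIO2 varied little among the co-culture libraries. SLIT2, a secreted guidance cue, was at 0.63, 0.54 and 0.6 FPKM against 3.12, 3.54 and 4.04 FPKM (log2 fold change -2.49, SE 0.11, adjusted p = 2.6e-16). PTX3, a secreted pattern recognition protein, was at 18.5, 20.9 and 18.1 FPKM against 91.2, 85.5 and 89.98 FPKM (log2 fold change -2.04, SE 0.062, adjusted p = 1.4e-19). RGS4, which shortens signals from G protein-coupled receptors, was at 2.95, 3.15 and 2.98 FPKM against 12.5, 13.5 and 14.3 FPKM (log2 fold change -1.96, SE 0.086, adjusted p = 3.1e-16). Every monoculture library lay well above the co-culture libraries in each case, where lack of overlap was again a condition of the naming rule. Further falls were RAB7B (log2 fold change -2.58), PYCR3 (-2.06), NETO2 (-1.99), GPATCH4 (-1.94) and WDR4 (-1.86), and TFRC, COL3A1 and HGF appear with their lists.

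By absolute abundance, the largest rises in FPKM included those of GAPDH, IGFBP3, MT2A and ALDOA. GAPDH and ALDOA are glycolytic enzymes. MT2A, a metal-binding metallothionein with close paralogs, was at 5170.3, 4902 and 5587 FPKM against 3381, 3499.62 and 3691 FPKM (log2 fold change 0.71, SE 0.051, adjusted p = 4e-12), and on both FPKM log scales its fold change was below the limit. The largest falls in FPKM were those of COL1A1, TUBA1B, CFL1, HSPA8 and SERPINH1. TUBA1B, an alpha tubulin with close paralogs, was at 1219, 1097 and 1169.82 FPKM against 1953, 2143 and 2196 FPKM (log2 fold change -0.68, SE 0.05, adjusted p = 6.4e-12). CFL1, the actin-severing protein cofilin, was at 784, 793 and 717 FPKM against 1295, 1316 and 1343 FPKM (log2 fold change -0.62, SE 0.044, adjusted p = 3.6e-12), and it fell just short of the limit without MRC5_CoH196 replicate 3.

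Genes at 3 counts or fewer in every MRC5_Mo library and at 1 CPM or more in every MRC5_CoH196 library were led by ISM2, MT3, C2orf72, NPPB and CCL28. Taking 3 counts in a library (0.162 CPM) as the floor, ISM2 was at least 40.0-fold higher, MT3, a brain-type metallothionein, at least 32.2-fold, C2orf72 at least 26.2-fold, NPPB, the precursor of B-type natriuretic peptide, at least 17.0-fold, and CCL28, a mucosal chemokine, at least 15.7-fold. MT3 was at 44.01, 32.6 and 44.8 FPKM against 0.4, 0 and 0 FPKM. NPPB was at 7.27, 5.9 and 6.21 FPKM against 0.12, 0 and 0 FPKM. No gene met the rule in the other direction. These floors cover counting error only.

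The genes of DNA replication and S phase fell together. Of 48 tested members 32 were lower and 0 were higher, with a median log2 fold change of -0.74. UHRF1, which recruits the maintenance DNA methyltransferase to newly made DNA, was at 13.5, 13.3 and 12.9 FPKM against 36.6, 38.6 and 40.1 FPKM (log2 fold change -1.36, SE 0.048, adjusted p = 3.3e-18). MCM10, needed to start replication forks, was at 1.11, 1.19 and 1.41 FPKM against 3.41, 3.79 and 3.65 FPKM (log2 fold change -1.37, SE 0.1, adjusted p = 7.7e-12). E2F8, a repressor among the E2F factors, was at 0.34, 0.41 and 0.42 FPKM against 1.42, 1.19 and 1.49 FPKM (log2 fold change -1.61, SE 0.18, adjusted p = 1.2e-08). PCNA, the sliding clamp of DNA polymerase, was at 50.6, 53.04 and 53.6 FPKM against 101, 109 and 117 FPKM (log2 fold change -0.88, SE 0.055, adjusted p = 2.5e-13). Co-culture libraries lay below all monoculture libraries for each of these genes. The mitosis and G2 list moved in the same direction with fewer calls, 18 lower and 0 higher of 49 and a median of -0.47. CCNB1, the mitotic cyclin, was at 25.3, 25.2 and 23.9 FPKM against 54.6, 59.4 and 61.4 FPKM (log2 fold change -1.06, SE 0.052, adjusted p = 2.6e-15). CDC20, which activates the anaphase-promoting complex, was at 37.9, 37.05 and 38.1 FPKM against 77.5, 84.5 and 96.01 FPKM (log2 fold change -1.02, SE 0.063, adjusted p = 2.7e-13). PLK1, a mitotic kinase, had a log2 fold change of -0.99. TOP2A, the topoisomerase of mitotic chromosomes, differed by only -0.18 on the log2 scale and was not a DEG. In MRC5_CoH69 the medians of these lists against MRC5_Mo were -0.24 and -0.21, with the same monoculture libraries as the baseline. There, 23 of 48 and 34 of 49 members had an adjusted p under 0.05 with no fold limit, against 6.7% of all tested genes.

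The promoters of the members that fell are shown because the genes moved together and the letters bound by E2F factors and by the factor NF-Y are well known. Sequences are from RefSeq on GRCh38.p14, are given 5′ to 3′ on the strand of the gene, end at or before the annotated start, and carry the searched letters in capitals. Of 12819 tested genes 10369 had an entry of 250 bases before and 50 after the start. TTTGGCGC or TTTCCCGC, on either strand, was in 19 of 40 promoters of the replication list (47.5%) and in 3.71% of the promoters of tested genes. CCAAT, on either strand, was in 32 of 41 promoters of the mitosis list (78.0%) and in 36.5% of those of tested genes. The windows shown are those of 2 genes that fell and hold the letters, UHRF1 at chr19:4909381-4909500 on the plus strand and CCNB1 at chr5:69167021-69167140 on the plus strand. Not every list member was considered, so UHRF1 need not be the largest such fall in its list. In UHRF1 the match is TTTCCCGC read on the other strand. A match is a description of the letters only.
UHRF1: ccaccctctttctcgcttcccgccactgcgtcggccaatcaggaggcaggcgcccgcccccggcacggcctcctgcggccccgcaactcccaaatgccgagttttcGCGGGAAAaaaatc
CCNB1: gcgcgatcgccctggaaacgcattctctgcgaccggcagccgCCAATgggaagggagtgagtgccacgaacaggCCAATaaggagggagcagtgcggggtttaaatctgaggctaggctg

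Inhibitors of cyclin-dependent kinases and targets of p53 were mixed, with 12 higher and 6 lower of 30 and a median of 0.42. Without the 3 members in the hypoxia or glycolysis sets, 9 were higher and 6 lower of 27, with a median of 0.31. CDKN1A, which encodes the inhibitor p21, was at 1032, 962 and 994 FPKM against 602, 606 and 588 FPKM (log2 fold change 0.91, SE 0.042, adjusted p = 7.7e-16). CDKN1C, which encodes p57, was at 6.9, 7.66 and 7.25 FPKM against 3.97, 2.47 and 2.72 FPKM (log2 fold change 1.42, SE 0.13, adjusted p = 7.2e-10). GDF15, a stress-induced cytokine, was at 119, 101 and 131 FPKM against 34.1, 38.5 and 33.02 FPKM (log2 fold change 1.91, SE 0.076, adjusted p = 3.8e-17), and GADD45B, a stress sensor, had a log2 fold change of 1.76. Against these, TP53I3, an oxidoreductase gene induced by p53, was at 13.7, 16.2 and 14.6 FPKM against 45.6, 45.6 and 47.4 FPKM (log2 fold change -1.45, SE 0.059, adjusted p = 5e-17), and FAS and PLK2 had log2 fold changes of -0.81 and -0.80.

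Ribosome biogenesis, the nucleolar work of making and trimming ribosomal RNA, was the other large group of falls, with 30 lower and 0 higher of 50 tested and a median of -0.69. RRP9, a protein of the small nucleolar particle that processes ribosomal RNA, was at 6.86, 6.08 and 5.58 FPKM against 19.5, 22.3 and 22.6 FPKM (log2 fold change -1.63, SE 0.087, adjusted p = 1.4e-14). RRS1, needed for the large subunit, was at 15.3, 13.7 and 14.9 FPKM against 41.3, 52.2 and 50.4 FPKM (log2 fold change -1.54, SE 0.074, adjusted p = 1.5e-15). NOP16, a nucleolar protein, was at 12.2, 11.3 and 11.7 FPKM against 33.6, 40.8 and 38.9 FPKM (log2 fold change -1.52, SE 0.089, adjusted p = 7.2e-14). All 3 co-culture libraries were below all monoculture libraries for these genes. The proteins of the cytosolic ribosome itself behaved differently, since 0 of 78 were DEGs and their median was 0.20, with 74 of 78 above 0. Proteins of the mitochondrial ribosome had 25 lower and 1 higher of 75 and a median of -0.43. MRPL15 was at 14.5, 13.99 and 14.7 FPKM against 36.7, 37.4 and 40.8 FPKM (log2 fold change -1.26, SE 0.058, adjusted p = 6.9e-16), and MRPL12 and MRPL3 had log2 fold changes of -1.15 and -1.05. The exception was MRPS6, at 209, 207 and 224 FPKM against 55.98, 47.8 and 57.1 FPKM (log2 fold change 2.16, SE 0.058, adjusted p = 1.3e-20). Among the Hallmark sets the MYC targets V2 had the lowest median, -0.78, with 2 higher and 36 lower of 58. MYC itself, the transcription factor for which those sets are named, was at 23.4, 21.1 and 23.2 FPKM against 11.97, 13.6 and 12.8 FPKM (log2 fold change 1, SE 0.063, adjusted p = 3.1e-13).

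The CACGTG letters, to which MYC and the clock factors bind as background knowledge, were in 15 of 43 promoters of the ribosome biogenesis list (34.9%) and in 5 of 16 of the circadian clock list (31.2%), against 10.1% of the promoters of tested genes. CACGTG reads the same on both strands and contains ACGTG, which was in 26.6% of the promoters of tested genes. UTP20 is a ribosome biogenesis gene that fell, but not every list member was considered, and larger falls may hold CACGTG too. BHLHE40 and BHLHE41 are clock genes that rose. Promoter windows that hold CACGTG before the start are shown for UTP20, BHLHE40 and BHLHE41 for comparison. They lie at chr12:101279985-101280104 on the plus strand, chr3:4979187-4979306 on the plus strand and chr12:26125038-26125157 on the minus strand of GRCh38.p14. UTP20, part of the complex that makes the small subunit, was at 1.76, 1.86 and 1.56 FPKM against 5.07, 4.81 and 5.01 FPKM (log2 fold change -1.35, SE 0.065, adjusted p = 1.4e-15).
UTP20: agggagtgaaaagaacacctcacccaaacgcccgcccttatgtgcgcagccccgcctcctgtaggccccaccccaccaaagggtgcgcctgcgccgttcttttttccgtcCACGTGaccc
BHLHE40: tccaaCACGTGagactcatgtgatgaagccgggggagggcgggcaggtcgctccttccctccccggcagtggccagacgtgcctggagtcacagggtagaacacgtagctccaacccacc
BHLHE41: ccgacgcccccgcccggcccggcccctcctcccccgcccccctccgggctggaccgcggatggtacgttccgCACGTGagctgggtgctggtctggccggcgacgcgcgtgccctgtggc

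**Figure D3:**
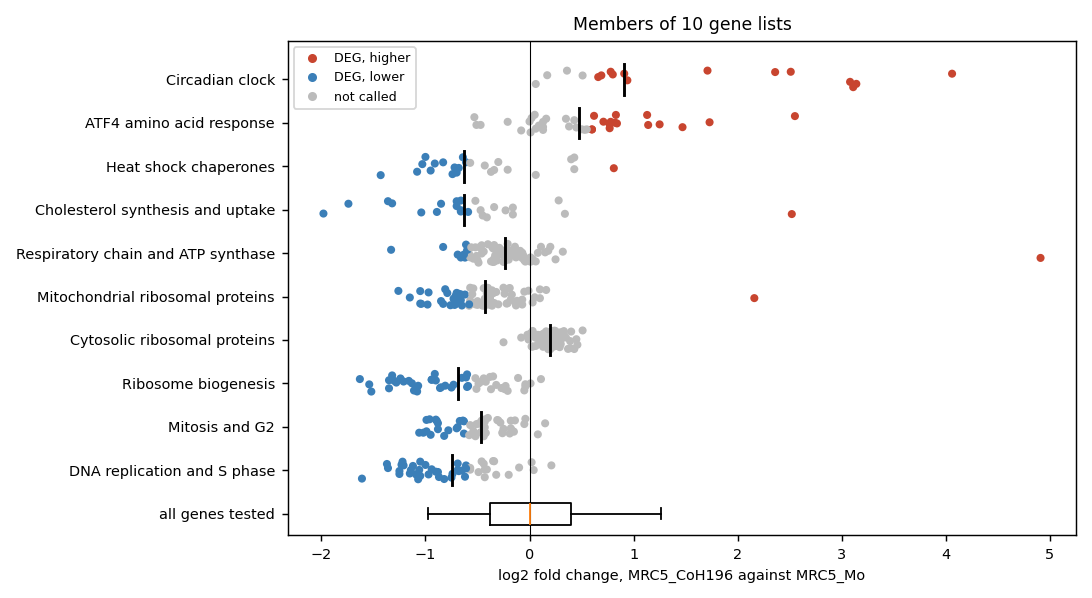
Log2 fold change of MRC5_CoH196 against MRC5_Mo for each tested member of 10 gene lists. Points are genes, colored by call, black bars are list medians, and the box at the bottom gives the quartiles of all tested genes, with whiskers that leave out the most extreme genes on each side. Ribosome biogenesis had a median of -0.69, while the cytosolic ribosomal proteins had a median of 0.20 with no member called.

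The respiratory chain and ATP synthase had 8 lower and 1 higher of 77, with a median of -0.24. On both FPKM log scales, which lack the composition correction, 21 of the 77 were DEGs. ATP5MC1, a subunit of the ATP synthase ring, was at 50.5, 50.4 and 48.2 FPKM against 137, 134 and 147 FPKM (log2 fold change -1.33, SE 0.064, adjusted p = 1.4e-15). NDUFS8 and NDUFA6, subunits of complex I, had log2 fold changes of -0.83 and -0.69. The one rise was NDUFA4L2, a relative of a complex subunit, at 24.7, 22.3 and 27.2 FPKM against 0.64, 0.72 and 1.14 FPKM (log2 fold change 4.91, SE 0.17, adjusted p = 3.1e-18). In the oxidative phosphorylation Hallmark set 5 were higher and 32 lower of 199.

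Heat shock chaperones, of the cytosol and the mitochondria, had 13 lower and 1 higher of 24 and a median of -0.62. HSPA8, the constitutive chaperone of the cytosol, was at 330.31, 348 and 325 FPKM against 749.79, 809.72 and 823 FPKM (log2 fold change -1.08, SE 0.042, adjusted p = 2.2e-17). HSPH1, its exchange factor, was at 12.1, 13.6 and 11.1 FPKM against 36.4, 39.1 and 38.6 FPKM (log2 fold change -1.43, SE 0.054, adjusted p = 1.2e-17). HSPE1, the lid of the mitochondrial chaperonin, had a log2 fold change of -1.03, and CRYAB, a small heat shock protein, was the one rise, at 81.2, 72.6 and 74.5 FPKM against 45.3, 48.7 and 53 FPKM (log2 fold change 0.81, SE 0.062, adjusted p = 1.2e-11). In the endoplasmic reticulum list 8 were lower and 4 higher of 29. HYOU1, a chaperone there, was at 16.9, 15.8 and 16.3 FPKM against 48.1, 49.4 and 50.4 FPKM (log2 fold change -1.42, SE 0.046, adjusted p = 5.6e-19), and SDF2L1 and MANF had log2 fold changes of -1.63 and -1.19. ERO1A, the oxidase that drives disulfide bonds, went the other way at 75.04, 86.6 and 83.7 FPKM against 12.9, 12.6 and 12.2 FPKM (log2 fold change 2.86, SE 0.05, adjusted p = 2.4e-24). HERPUD1 and PPP1R15A, at log2 fold changes of 0.65 and 0.67, were below the limit on both FPKM log scales.

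The ATF4 response list holds genes of amino acid synthesis and transport induced under amino acid shortage. It had 16 higher and 0 lower of 38 and a median of 0.48. Without the 3 members in the hypoxia or glycolysis sets, 14 were higher and 0 lower of 35, with a median of 0.43. CHAC1, which degrades glutathione, was at 195.89, 166 and 181 FPKM against 60.6, 62.4 and 59.6 FPKM (log2 fold change 1.73, SE 0.06, adjusted p = 2e-18). ASNS, asparagine synthetase, was at 104, 102 and 95.01 FPKM against 47.5, 39.6 and 37.2 FPKM (log2 fold change 1.47, SE 0.068, adjusted p = 8.2e-16). VLDLR, a lipoprotein receptor, was at 6.22, 6.11 and 6.75 FPKM against 1.39, 1.1 and 1.18 FPKM (log2 fold change 2.55, SE 0.074, adjusted p = 6.4e-20). DDIT3, the stress factor CHOP, was at 47.4, 39.2 and 37.4 FPKM against 23.5, 18.8 and 19.5 FPKM (log2 fold change 1.14, SE 0.093, adjusted p = 4.7e-11). The co-culture libraries were above all monoculture libraries for each. SLC7A11, the cystine transporter, was at 11.6, 10.5 and 11.9 FPKM against 19.01, 18.2 and 17.3 FPKM, a log2 fold change of -0.51 that did not reach the limit.

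The list of sterol synthesis and uptake fell, with 13 lower and 1 higher of 24 and a median of -0.62. ACAT2, a thiolase at the start of the pathway, was at 11.2, 12.8 and 12.96 FPKM against 33.01, 36.5 and 37.1 FPKM (log2 fold change -1.36, SE 0.07, adjusted p = 5.6e-15). INSIG1, which holds the sterol sensor in the endoplasmic reticulum, was the one rise, at 53.8, 61.7 and 59.1 FPKM against 11.8, 11.1 and 11.2 FPKM (log2 fold change 2.52, SE 0.059, adjusted p = 8.1e-22). The cholesterol homeostasis Hallmark set was more mixed, with 12 higher and 19 lower of 68 and a median of -0.11. In the list of fatty acid synthesis and lipid droplets 3 were higher and 6 lower of 27. FASN, fatty acid synthase, was at 8.98, 8.52 and 8.18 FPKM against 21.6, 22.2 and 22.2 FPKM (log2 fold change -1.19, SE 0.048, adjusted p = 5.6e-17), and FADS2 and ELOVL6 had log2 fold changes of -1.07 and -0.89. PLIN2, which coats lipid droplets, was at 550.17, 554 and 582 FPKM against 58.6, 62.6 and 64.8 FPKM (log2 fold change 3.37, SE 0.052, adjusted p = 1.3e-25). CD36, a fatty acid receptor, was at 0.76, 0.73 and 0.58 FPKM against 0.45, 0.58 and 0.45 FPKM, so that the groups touched. Its log2 fold change was 0.77, or 0.6 without libraries 1 and 2 of MRC5_CoH196. On either FPKM log scale it was not called.

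Antioxidant and iron genes had 3 higher and 6 lower of 34, with a median of -0.30. TFRC, the transferrin receptor that brings iron into the cell, was at 8.77, 9.31 and 7.61 FPKM against 44.96, 45.8 and 45.1 FPKM (log2 fold change -2.22, SE 0.054, adjusted p = 1.6e-21). HMOX1, heme oxygenase, was at 8.55, 6.83 and 6.1 FPKM against 30.5, 28.1 and 27.8 FPKM (log2 fold change -1.84, SE 0.087, adjusted p = 1.1e-15). PGD, of the pentose phosphate pathway, had a log2 fold change of -1.19. MT1X, a metallothionein with close paralogs, was at 146, 166 and 157 FPKM against 55.3, 63.5 and 59.4 FPKM (log2 fold change 1.54, SE 0.09, adjusted p = 8.2e-14), and SOD3, an extracellular superoxide dismutase, had a log2 fold change of 0.82. The autophagy and lysosome list had 6 higher and 0 lower of 37. BNIP3L, a mitophagy receptor, was at 153, 172 and 168 FPKM against 41.4, 39.5 and 35.96 FPKM (log2 fold change 2.25, SE 0.054, adjusted p = 1.5e-21), BNIP3, its relative, was at 396, 408 and 442 FPKM against 72.7, 73.6 and 70.2 FPKM, and GABARAPL1 had a log2 fold change of 1.07.

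Circadian clock genes had the largest share of rises of any list, 13 of 17 tested, with 0 lower and a median of 0.91. Outside the hypoxia and glycolysis sets 10 of 14 were higher, with a median of 0.79. The clock is a feedback loop in which CLOCK and ARNTL activate the PER, CRY and NR1D genes, whose products repress it. RORA, an activator of ARNTL, was at 4.8, 5.14 and 5.33 FPKM against 0.36, 0.39 and 0.28 FPKM (log2 fold change 4.06, SE 0.092, adjusted p = 3.8e-22). NR1D1, the repressor REV-ERB alpha, was at 44.5, 32.5 and 42.04 FPKM against 4.78, 5.41 and 5.02 FPKM (log2 fold change 3.14, SE 0.1, adjusted p = 5e-19). BHLHE40 was at 48.1, 43.7 and 51.9 FPKM against 5.81, 6.36 and 6.6 FPKM (log2 fold change 3.11, SE 0.07, adjusted p = 3.8e-22), and its paralog BHLHE41 was at 6.85, 7.97 and 8.15 FPKM against 1.2, 0.81 and 1.04 FPKM (log2 fold change 3.08, SE 0.11, adjusted p = 4.1e-18). Each was at least several-fold above monoculture in every co-culture library. DBP, an output factor, was at 8.62, 8.32 and 7.12 FPKM against 2.26, 1.66 and 1.68 FPKM (log2 fold change 2.36, SE 0.12, adjusted p = 9.8e-15). PER1 was at 8.12, 7.16 and 7.1 FPKM against 2.8, 2.46 and 2.5 FPKM (log2 fold change 1.71, SE 0.078, adjusted p = 5.9e-16), and CRY2, NR1D2 and PER2 had log2 fold changes of 0.91, 0.66 and 0.80. The activators moved less, since ARNTL was at 5.27, 5.63 and 5.24 FPKM against 5.42, 6.07 and 5.97 FPKM (log2 fold change 0.06, SE 0.079, adjusted p = 0.48) and CLOCK had a log2 fold change of 0.36, neither of them a DEG. In MRC5_CoH69 the list had a median of 0.00 against MRC5_Mo and 0 of 17 members with an adjusted p under 0.05. The hour at which each culture was harvested is not given in the sources used here.

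**Figure D4:**
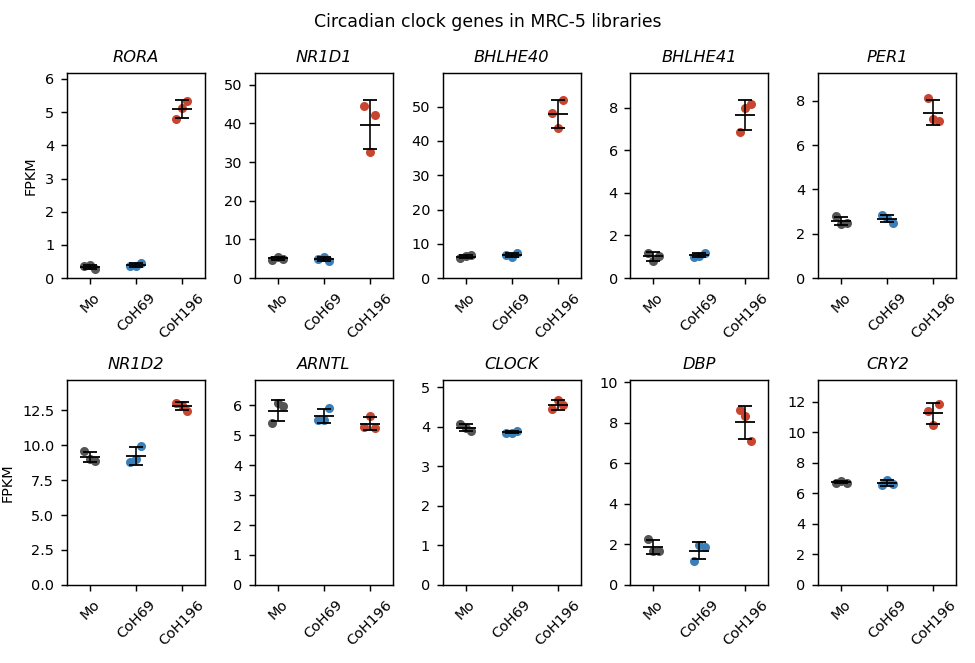
FPKM of 10 circadian clock genes in each MRC-5 library. Points are libraries, horizontal marks are means and bars are SDs (n = 3), and every y axis starts at 0. RORA, NR1D1, BHLHE40, BHLHE41, PER1 and DBP were higher in all 3 MRC5_CoH196 libraries than in any other, while ARNTL had a log2 fold change of 0.06 against MRC5_Mo.

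Immediate early genes, which answer growth factors and stress within minutes, had 15 higher and 4 lower of 30 and a median of 0.54. Without the 9 members in the hypoxia or glycolysis sets, 10 were higher and 3 lower of 21, with a median of 0.51. DUSP1, a phosphatase of the MAP kinases, was at 256, 213 and 271 FPKM against 63.3, 75.04 and 75.02 FPKM (log2 fold change 1.97, SE 0.073, adjusted p = 9.3e-18). IER3 had a log2 fold change of 1.55 and DUSP5 of 1.47. JUN, of the AP-1 complex, was at 135, 129.87 and 140.41 FPKM against 69, 73.7 and 76.6 FPKM (log2 fold change 1.06, SE 0.048, adjusted p = 5.4e-16). EGR1 was at 23.8, 21.96 and 20.7 FPKM against 39.8, 39.9 and 41.6 FPKM (log2 fold change -0.69, SE 0.05, adjusted p = 4.2e-12), and SRF, the factor that drives many of these genes, was at 15.2, 14.3 and 14.5 FPKM against 29.1, 28.3 and 29.2 FPKM (log2 fold change -0.76, SE 0.05, adjusted p = 7.8e-13). EGR3 was low in both groups, with a log2 fold change of -2.53, and was not called on log2(FPKM + 1). Histone demethylases had 7 higher and 0 lower of 19 and a median of 0.29. KDM3A, which removes methyl groups from lysine 9 of histone H3, was at 24.02, 24.6 and 24.7 FPKM against 5.71, 5.75 and 5.48 FPKM (log2 fold change 2.23, SE 0.052, adjusted p = 6.4e-22), and KDM7A and KDM6B had log2 fold changes of 1.82 and 1.22.

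Collagen genes split by chain. Of 26 tested chains 7 were higher and 4 lower, with a median of 0.08. COL1A1, the main chain of type I collagen, was at 809.76, 806 and 739 FPKM against 2735, 2624 and 2524 FPKM (log2 fold change -1.57, SE 0.044, adjusted p = 3.4e-20). COL3A1, of type III collagen, was at 53.9, 57.2 and 50.9 FPKM against 283, 255 and 242 FPKM (log2 fold change -2.09, SE 0.054, adjusted p = 5.9e-21). COL14A1, which decorates fibrils, was at 0.03, 0.06 and 0.08 FPKM against 1, 0.78 and 0.57 FPKM (log2 fold change -3.62, SE 0.28, adjusted p = 2.2e-11). The co-culture libraries were below all monoculture libraries for all 3. COL1A2, the partner chain of type I collagen, was at 1187, 1229 and 1156 FPKM against 2100.23, 1993 and 1828 FPKM and, with a log2 fold change of -0.56, did not reach the limit. Chains that rose included COL6A2, of the beaded filaments around cells, at 1244, 1166 and 1256 FPKM against 763, 718 and 693 FPKM (log2 fold change 0.93, SE 0.046, adjusted p = 2.4e-15), and COL8A2, at 2.74, 3.1 and 3.11 FPKM against 1.34, 1.12 and 1.19 FPKM (log2 fold change 1.47, SE 0.1, adjusted p = 3.7e-12). COL15A1 had a log2 fold change of 0.84 and was not called on log2(FPKM + 1).

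Enzymes that modify and cross-link collagen had 8 higher and 4 lower of 28. LOX, lysyl oxidase, was at 613, 653 and 665 FPKM against 114, 113 and 104 FPKM (log2 fold change 2.72, SE 0.047, adjusted p = 1.2e-24). PLOD2, a lysyl hydroxylase, was at 147, 157 and 155 FPKM against 46.8, 49.9 and 44.2 FPKM (log2 fold change 1.88, SE 0.047, adjusted p = 2.7e-21). P4HA1, the prolyl hydroxylase subunit, was at 238, 249.64 and 255 FPKM against 82.4, 77.9 and 73.2 FPKM (log2 fold change 1.84, SE 0.049, adjusted p = 8.3e-21). Of the 28 members 6 lie in the hypoxia or glycolysis sets, and outside them 3 were higher and 4 lower of 22. SERPINH1, the chaperone of procollagen, was at 314, 313 and 298 FPKM against 739, 711 and 670.19 FPKM (log2 fold change -1.03, SE 0.045, adjusted p = 3.3e-16). ADAMTS14, which cuts the procollagen propeptide, was at 0.39, 0.5 and 0.45 FPKM against 1.44, 1.33 and 1.44 FPKM (log2 fold change -1.58, SE 0.15, adjusted p = 9.2e-10), and ADAMTS3, with the same role, had a log2 fold change of -0.82 at under 1 FPKM.

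**Figure D5:**
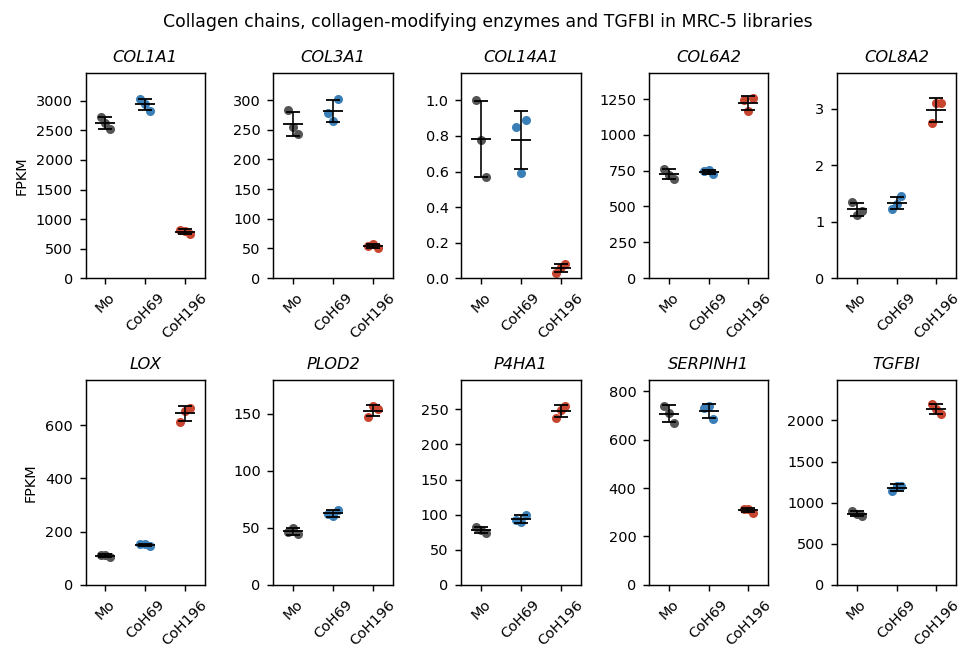
FPKM of 5 collagen chains, 3 collagen-modifying enzymes, the collagen chaperone SERPINH1 and TGFBI in each MRC-5 library. Points are libraries, horizontal marks are means and bars are SDs (n = 3), and every y axis starts at 0. COL1A1, COL3A1, COL14A1 and SERPINH1 were lowest and COL6A2, COL8A2, LOX, PLOD2, P4HA1 and TGFBI were highest in the MRC5_CoH196 libraries.

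Other matrix glycoproteins and proteoglycans had 8 higher and 3 lower of 44, near the share of all genes on the higher side. TGFBI, an adhesive protein, was at 2195, 2141 and 2077 FPKM against 895, 859 and 834 FPKM (log2 fold change 1.48, SE 0.042, adjusted p = 3.4e-20). HAS2, which makes hyaluronan, was at 40.1, 42.6 and 44.2 FPKM against 12.4, 14.7 and 17.4 FPKM (log2 fold change 1.68, SE 0.072, adjusted p = 1.9e-16), and THBS2, a thrombospondin, had a log2 fold change of 1.44. TNC, tenascin C, had a log2 fold change of -0.78, and FBN1, fibrillin 1, was at 39.6, 39.2 and 39.3 FPKM against 67.7, 68.2 and 67.7 FPKM (log2 fold change -0.61, SE 0.039, adjusted p = 4.2e-13). FN1, fibronectin, was at 1969, 1924 and 1980.34 FPKM against 1744, 1691 and 1637 FPKM, a log2 fold change of 0.38 that was below the limit. SPON1 was under 1 FPKM in all 6 libraries, with a log2 fold change of -1.79, or -1.04 without libraries 1 and 2 of MRC5_CoH196. Integrins, laminins and cadherins had 8 higher and 4 lower of 37. ITGB3, a subunit of the vitronectin receptor, was at 15.01, 14.9 and 16.03 FPKM against 7.77, 7.72 and 7.93 FPKM (log2 fold change 1.15, SE 0.058, adjusted p = 4.3e-15), and ITGB8 had a log2 fold change of 1.14 at 1.23, 1.76 and 1.48 FPKM against 0.8, 0.75 and 0.71 FPKM. ITGB8, ITGB4, ITGA10, ITGA8 and LAMA3, all at low levels, were not called on log2(FPKM + 1), and LAMA3 was also not called on log2(FPKM + 0.1).

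Proteases and their inhibitors had 9 higher and 4 lower of 31, with a median of 0.34. The plasminogen activators moved apart, since PLAT, tissue plasminogen activator, was at 111, 111 and 118 FPKM against 45.3, 40.8 and 39.8 FPKM (log2 fold change 1.61, SE 0.052, adjusted p = 5e-19), and PLAU, urokinase, was at 125, 124 and 130.29 FPKM against 306, 305 and 305 FPKM (log2 fold change -1.1, SE 0.042, adjusted p = 1.6e-17). MMP12, an elastase of the metalloproteinases, was under 1 FPKM in all libraries and at 0 in 2 of 3 monoculture libraries. MMP15 and MMP16, membrane-bound metalloproteinases, had log2 fold changes of -1.29 and -0.71. Contractile genes, which mark the myofibroblast state, had 3 higher and 4 lower of 31. ACTG2, a smooth muscle actin, was at 130.06, 125 and 134 FPKM against 343, 343 and 339.74 FPKM (log2 fold change -1.22, SE 0.057, adjusted p = 9.9e-16). ACTA2, the usual myofibroblast marker, was at 254, 233 and 242 FPKM against 401, 381 and 390.28 FPKM, a log2 fold change of -0.46 that was below the limit, and TAGLN was at 0.10. CALD1, caldesmon, was at 350.28, 388 and 384 FPKM against 248, 254 and 242 FPKM (log2 fold change 0.77, SE 0.042, adjusted p = 2.1e-14). LPP was at the limit and lost its call in 6 of 15 alternatives.

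Ligands and targets of TGF-beta and bone morphogenetic proteins had 17 higher and 5 lower of 38, with a median of 0.45. INHBB, a subunit of activin B, was at 1.16, 1.46 and 1.32 FPKM against 0.04, 0.09 and 0.06 FPKM (log2 fold change 4.55, SE 0.3, adjusted p = 6.4e-13). BMP4, a bone morphogenetic protein, was at 4.23, 4.98 and 4.64 FPKM against 13.1, 10.3 and 8.69 FPKM (log2 fold change -1.06, SE 0.13, adjusted p = 7.8e-08). The matricellular CCN family split, with CCN1 at 883, 812 and 903 FPKM against 399.98, 409 and 419.56 FPKM (log2 fold change 1.25, SE 0.046, adjusted p = 6.8e-18), CCN2 at 931, 934 and 925 FPKM against 449, 457 and 465 FPKM (log2 fold change 1.2, SE 0.04, adjusted p = 9.8e-19) and CCN4 at 13.7, 15.9 and 14.8 FPKM against 3.36, 2.7 and 2.39 FPKM (log2 fold change 2.56, SE 0.081, adjusted p = 3e-19). CCN5 was at 2.14, 1.9 and 1.47 FPKM against 0.21, 0.43 and 0.07 FPKM (log2 fold change 3.8, SE 0.39, adjusted p = 2.9e-09). CCN3 was the member that fell, at 0.17, 0.4 and 0.26 FPKM against 0.93, 0.8 and 1.01 FPKM (log2 fold change -1.55, SE 0.29, adjusted p = 2.9e-05).

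Growth factors and their receptors had 18 higher and 7 lower of 39, with a median of 0.51. Outside the hypoxia and glycolysis sets 12 were higher and 7 lower of 33, with a median of 0.33. IGFBP3, which binds insulin-like growth factors, was at 2618, 2666 and 2852 FPKM against 131, 151 and 155 FPKM (log2 fold change 4.39, SE 0.06, adjusted p = 1.4e-26). VEGFA, the main angiogenic factor, was at 279, 250.46 and 282 FPKM against 23.2, 21.6 and 20.6 FPKM (log2 fold change 3.84, SE 0.061, adjusted p = 2.7e-25). FGF11, a fibroblast growth factor that stays inside the cell, was at 4.24, 4.44 and 5.12 FPKM against 0.46, 0.42 and 0.38 FPKM (log2 fold change 3.63, SE 0.16, adjusted p = 2.9e-16). HGF, the ligand of the MET receptor, was at 10.8, 11.04 and 9.46 FPKM against 40.3, 36.98 and 38.9 FPKM (log2 fold change -1.84, SE 0.063, adjusted p = 1.8e-18). PDGFD, a platelet-derived growth factor, was at 0.37, 0.49 and 0.44 FPKM against 2.14, 1.81 and 1.68 FPKM (log2 fold change -1.95, SE 0.18, adjusted p = 3.1e-10), and HBEGF, an EGF receptor ligand, was at 4.47, 3.34 and 4.01 FPKM against 9.26, 10.9 and 11.2 FPKM (log2 fold change -1.23, SE 0.11, adjusted p = 1.7e-10). No library of one group reached the range of the other for any of these. Wnt and Notch genes had 6 higher and 4 lower of 33. NOTCH3 was at 48.7, 44.9 and 44.2 FPKM against 19.7, 20.01 and 20.1 FPKM (log2 fold change 1.38, SE 0.055, adjusted p = 4.6e-17), WNT16 had a log2 fold change of 1.85, and WNT2 was at 0.06, 0.09 and 0.01 FPKM against 0.88, 0.62 and 0.53 FPKM (log2 fold change -3.43, SE 0.38, adjusted p = 1.3e-08). JAG2, DKK2 and APCDD1 were under 1 FPKM in all 6 libraries.

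Cytokines and chemokines had 8 higher and 5 lower of 21 tested and a median of 0.18. Outside the hypoxia and glycolysis sets 6 were higher and 5 lower of 19, with a median of -0.03. CSF2, which encodes the growth factor GM-CSF, was at 4.5, 2.26 and 3.03 FPKM against 0.1, 0.11 and 0.11 FPKM (log2 fold change 4.96, SE 0.5, adjusted p = 2.5e-09). PTGS2, the inducible cyclooxygenase, was at 5.13, 5.75 and 5.07 FPKM against 0.25, 0.63 and 0.68 FPKM (log2 fold change 3.53, SE 0.17, adjusted p = 1.8e-15). CXCL8, a neutrophil chemokine, was at 5.36, 4.79 and 5.13 FPKM against 0.86, 1.25 and 1.11 FPKM (log2 fold change 2.41, SE 0.16, adjusted p = 1.5e-12). IL6 was at 6.79, 5.87 and 7.75 FPKM against 4.64, 4.65 and 4.4 FPKM (log2 fold change 0.72, SE 0.13, adjusted p = 3.5e-05). VCAM1, a leukocyte adhesion molecule, was at 0.59, 0.81 and 0.93 FPKM against 5.21, 4.62 and 3.72 FPKM (log2 fold change -2.37, SE 0.2, adjusted p = 6.8e-11), and CCL2, a monocyte chemokine, was at 30.9, 29.02 and 29.4 FPKM against 54.8, 51.7 and 51.02 FPKM (log2 fold change -0.65, SE 0.07, adjusted p = 7.5e-09). CXCL10 and TNFAIP6 were under 1 FPKM in all 6 libraries, with log2 fold changes of -2.33 and -1.87.

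Interferon-stimulated genes had 9 higher and 6 lower of 39 and a median of 0.04. Relative to all genes the median was 0.05, and it turned to -0.09 without MRC5_CoH196 replicate 2 and to -0.14 without libraries 1 and 2. The median level of this list had the largest replicate spread of the 28 lists. IFIT2 was at 3.61, 6.29 and 1.39 FPKM against 1.9, 1.42 and 1.18 FPKM (log2 fold change 1.49, SE 0.29, adjusted p = 6.6e-05), so that library 3 lay within the range of monoculture. MX1 was at 2.94, 5.79 and 1.89 FPKM against 1.41, 1.29 and 1.4 FPKM (log2 fold change 1.48, SE 0.24, adjusted p = 4.2e-06), and OASL at 1.32, 2.19 and 0.52 FPKM against 0.18, 0.21 and 0.18 FPKM (log2 fold change 3.12, SE 0.43, adjusted p = 5.7e-07). For all 3 genes library 2 was the highest and library 3 the lowest, which is also the order of H196 marker RNA. They are 3 of 39 tested members, MX1 was named after its values were seen, and a link to H196 RNA was not tested. At the mean share of 0.34%, H196 RNA would give 0.0633% of the MRC5_CoH196 level of IFIT2, 0.0254% of that of MX1 and 0.0178% of that of OASL. Without libraries 1 and 2 the log2 fold change of IFIT2 went from 1.49 to 0.08, whereas that of IFI27 went from 1.49 to 1.21. GBP1 and GBP2, guanylate-binding proteins, were even between libraries, with GBP1 at 12.6, 12.9 and 12.2 FPKM against 26.3, 24.9 and 26.2 FPKM (log2 fold change -0.86, SE 0.05, adjusted p = 7.4e-14) and GBP2 at 1.5, 1.68 and 1.66 FPKM against 5.24, 4.6 and 4.94 FPKM (log2 fold change -1.44, SE 0.087, adjusted p = 1.5e-13). OAS3 was at 0.64, 0.83 and 0.46 FPKM against 1.46, 1.13 and 1.1 FPKM, with a log2 fold change of -0.76, and its call was lost without MRC5_CoH196 replicate 3.

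The response was then set beside that to the other tumor line. Against MRC5_CoH69, 72.3% of all tested genes differed at an adjusted p under 0.05, whereas 6.7% differed between MRC5_CoH69 and MRC5_Mo. As values of genes already chosen for their change against MRC5_Mo, the log2 difference between MRC5_CoH196 and MRC5_CoH69 for COL1A1 was -1.75, for IGFBP3 3.71, for NR1D1 3.17 and for UHRF1 -1.07. CCL2 was at 85.4, 80.4 and 87.6 FPKM in MRC5_CoH69, above both other groups, and CXCL12, a chemokine of stromal cells, was at 18.7, 18.4 and 18.5 FPKM in MRC5_CoH69, below both other groups. In MRC5_CoH196 against MRC5_Mo it was at 39.9, 40.7 and 38.3 FPKM against 23.9, 29.1 and 31.4 FPKM. These comparisons share the MRC5_CoH196 or the MRC5_Mo libraries.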

How the data were processed

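Poly(A)-enriched RNA of MRC-5 cells was sequenced on BGISEQ-500. Reads were filtered with SOAPnuke and aligned to GRCh38.p13 by the authors, whose processing notes name HISAT2 2.1.0, Bowtie2 2.3.4.3 and RSEM 1.3.1. The deposited tables give estimated counts (expected counts, 93.7% of them whole) and FPKM per gene and library, both made by the authors. FPKM is scaled by transcript length and library size and has no correction for RNA composition. A further 36 columns of per-sample values (TPM, normalised counts, FPKM of H196) and the columns of the authors' own comparisons (fold changes, p and q values) were not used.

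Counts were rounded, filtered with filterByExpr, scaled by TMM and tested with edgeR 4.0.16 (R 4.3.3) by the quasi-likelihood test in 1 fit of 9 MRC-5 libraries in 3 groups, with Benjamini-Hochberg adjustment over 12819 genes. DESeq2 1.42.0 and limma 3.58.1 on log2(FPKM + 1) and log2(FPKM + 0.1) were alternatives. On simulated counts for MRC5_CoH196 against MRC5_Mo with 12704 genes, edgeR recovered 191 of 200 changed genes with 0 false calls. The simulation had few changed genes, with rises and falls balanced, whereas 31.9% of genes were called in the data. It cannot show the error rate in that setting.

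Depth was 18476890 to 19170560 counts per library, at which 3 counts are 0.156 to 0.162 CPM. No library pair of a group agreed within sampling noise (chi-square per degree of freedom 1.93 to 4.34). No sequencing batch or date is given in the labels. Promoter sequences came from the RefSeq table of GRCh38.p14, and its coordinates were not mixed with those of the files.

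The comparison, the 28 gene lists and the naming rule were chosen with earlier results of these data known. Named were the 15 largest rises and falls among DEGs with a mean of 10 CPM or more over the 9 libraries, no overlap and no place in the Hallmark hypoxia or glycolysis sets or among HLA genes. To these were added the 3 largest rises and falls of each list, the 5 largest rises and falls in FPKM, and up to 5 genes at 3 counts or fewer in one group and 1 CPM or more in the other. MYC, PCNA, TOP2A, CDKN1A, DDIT3, SLC7A11, further clock genes, JUN, COL1A2, FN1, ACTA2, TAGLN, CCN1, CCN2, IL6, CCL2, CXCL12, MX1, UTP20, MAGEA4, SIK1 and the marker genes were named after their values were seen. Some genes that meet the rule are not reported here.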

Additional observations from a re-analysis of the deposited data

Results flagged for a closer look

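RNA of 95 H196 marker genes appeared in the fibroblast libraries, which are the same libraries that the group comparisons used. It summed to 53.5, 61.8 and 23.7 CPM in MRC5_CoH196 libraries 1, 2 and 3, against 8.97 to 9.92 CPM in the MRC5_Mo libraries. The markers were chosen to be low in MRC5_Mo, so part of the gap to that group follows from the choice, whereas the MRC5_CoH69 libraries, at 8.36 to 10.4 CPM, were not used to choose them.

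Among the named genes, 2 passed the DEG limits against MRC5_Mo in opposite directions with the 2 tumor lines. MYH11, smooth muscle myosin, differed by -2.60 on the log2 scale between MRC5_CoH196 and MRC5_CoH69 (edgeR, adjusted p = 7.6e-07), being -1.71 against MRC5_Mo with H196 and 0.89 with H69. LAMA3, a laminin chain, differed by -1.77 (edgeR, adjusted p = 3.9e-07), being -0.97 with H196 and 0.79 with H69. MYH11 was at or below 0.25 FPKM and LAMA3 at or below 0.48 FPKM in all 9 libraries. With H196, neither was a DEG against MRC5_Mo on log2(FPKM + 1). LAMA3 was also not called on log2(FPKM + 0.1), at a log2 fold change of -0.26.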

How the results depend on the processing

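The DEG count was 4092. With a log2 fold change limit of 1 it was 1564 (969 higher and 595 lower), and with no fold limit 9522 (4765 higher and 4757 lower). On log2(FPKM + 1) 915 genes were higher, and on log2(FPKM + 0.1) 1437 were higher and 2869 lower. These scales lack the composition correction, so list medians are compared relative to the median of all genes. The count was 3955 with DESeq2, 4083 with its size factors, 4463 with no filter, 3644 with 10 counts required in every library and 4067 with only the 6 libraries. Without libraries 1 and 2 of MRC5_CoH196, an alternative chosen after seeing the data that leaves 1 library assumed to vary like the other groups, it was 4178. Leaving out 1 library at a time gave 3961 to 4147.

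Replicate numbers did not pair the samples, since deviations of same-numbered libraries correlated at -0.025, -0.05 and -0.038. With the replicate number as a block the count was 4088.

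Relative to all genes, list medians moved by more than the replicate spread in these cases, in which the direction was kept. On log2(FPKM + 1) the median was 0.38 for CDK inhibitors and p53 targets, 0.42 for the ATF4 list, 0.37 for TGF-beta and 0.34 for immediate early factors. With no filter it was 0.45 for the ATF4 list and -0.17 for ER chaperones. Without libraries 1 and 2 of MRC5_CoH196 it was 0.53 for ATF4 and 0.34 for autophagy. Leaving out 1 library gave 0.2 to 0.25 for cytosolic ribosomal proteins, 0.45 to 0.51 for ATF4, 0.09 to 0.45 for cytokines (0.45 without MRC5_Mo replicate 3) and -0.31 to -0.25 for antioxidant and iron genes. The interferon list, at 0.05, moved within its replicate spread but changed sign, to -0.09 without MRC5_CoH196 replicate 2 and -0.14 without libraries 1 and 2. Counts of DEGs in a list moved by over 1.5 times for respiratory chain genes (9 to 21 on both FPKM scales), cytosolic ribosomal proteins (0 to 3 without libraries 1 and 2), on log2(FPKM + 1) for proteases (13 to 5), growth factors (25 to 16), Wnt and Notch (10 to 6), autophagy (6 to 3), immediate early genes (19 to 11) and integrins (12 to 6), and on log2(FPKM + 0.1) for mitosis (18 to 31), mitochondrial ribosomal proteins (26 to 42) and antioxidant genes (9 to 14). The cause of these shifts was not tested. Of 163 named genes 137 kept call and direction in all 15 alternatives, and no direction reversed. Of 23 named genes not called on log2(FPKM + 1), 17 were called on log2(FPKM + 0.1), and 15 of these 17 had group means under 2 FPKM. At this depth a level under 0.162 CPM, or 3 counts, in a library could not be told from 0.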
